A study of Mus musculus with 4 samples.

Results

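The p53 pathway was examined in mouse fibroblasts that lack SIN1, a subunit of mTOR complex 2, the kinase complex that phosphorylates AKT. The members are 15 probe sets of a Mouse 430 2.0 array, paired with 10 genes by a list supplied for this work: Trp53, Mdm2, Ccng1, Bax, Bbc3, Pmaip1, Trp53inp1, Plk2, Perp and Btg2. All 15 were found among the 45037 probe sets tested. The deposited table carries no gene names, so this pairing was not checked against an array annotation. The series holds 4 arrays of total RNA labelled with biotin: 2 of wild type cells and 2 of SIN1 KO cells in which the gene was ablated. Both groups are fibroblasts of strain C57BL/6 grown in DMEM without any named treatment, and the labels describe the SIN1 KO cells as having altered metabolism. The age and number of embryos, the number of independent cell lines and the way the lines were immortalised are unstated. Replicates of a genotype are not said to come from separate cultures, so the p-values cover the spread among these arrays alone, and that spread may be technical.

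p53, encoded by Trp53, is a transcription factor that is stabilised by DNA damage and other stress and then induces genes that halt the cell cycle or start apoptosis. Its protein level is held low by Mdm2, a ubiquitin ligase that p53 itself induces, which closes a negative feedback loop. AKT, the kinase downstream of mTOR complex 2, phosphorylates Mdm2 and promotes its action on p53. Cultured mouse fibroblasts often alter this pathway when they become immortal. An array reads transcripts only, so neither the amount nor the activity of the p53 protein was measured.

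p53 binds DNA as a tetramer at pairs of a short half-site. The promoter stretches shown are those with a match to the consensus of that half-site, set beside the transcripts measured. RefSeq promoter windows of assembly GRCm38.p6, from 250 bases before to 50 bases after a transcription start, were available for 7 of the 10 genes. Pmaip1, Trp53inp1 and Perp had no window. The half-site consensus of p53 is 3 purines, C, 2 bases that are A or T, G and 3 pyrimidines. It reads alike on both strands and was found in 4 of these 7 genes, or 4 of their 9 windows. Of all 32851 windows, 8.36% held it. The half-site is in capitals, with the flanking bases in lower case, each read 5′ to 3′ along the gene's strand.
Trp53 (chr11:69580254-69580323, plus strand): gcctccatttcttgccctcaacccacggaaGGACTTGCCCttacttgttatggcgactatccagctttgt
Mdm2 (chr10:117710905-117710974, minus strand): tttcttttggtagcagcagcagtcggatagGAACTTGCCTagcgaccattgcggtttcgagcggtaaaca
Ccng1 (chr11:40755432-40755501, minus strand): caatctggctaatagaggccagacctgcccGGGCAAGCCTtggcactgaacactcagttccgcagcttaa
Bax (chr7:45467060-45467129, minus strand): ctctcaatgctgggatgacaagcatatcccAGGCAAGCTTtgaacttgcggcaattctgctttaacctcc

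The first base of the half-site lay 75 bases upstream of the annotated start in Trp53, 186 in Mdm2, 185 in Ccng1 and 201 in Bax. A pair of half-sites, up to 13 bases apart and with at most 1 mismatch in all, was found in the windows of Ccng1 and Bax and in 1.09% of all windows. No half-site was found in the windows of Btg2, Bbc3 or Plk2. A match is a description of the sequence, and the arrays did not measure binding.

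Values are log2 intensities from RMA, in which the authors' software subtracts background, puts the arrays on a common distribution and combines the probes of a set. A difference of 1 on this scale is a 2-fold change. The medians of the 4 arrays lay between 4.23 and 4.32. The highest of 27 Bacillus subtilis control probe sets, at 3.75 to 4.27 depending on the array, was taken as the background level. It rests on a single control, since the next highest one was at 3.27 to 3.64. Of the 15 member probe sets, 12 lay above that level on every array, and 0 lay at or below it on all 4. Among all tested probe sets, 43.5% to 49.5% lay at or below it, depending on the array. Shares over all probe sets given below are therefore not matched to the members for level. Wild type 1 and SIN1 KO 1 were the most alike pair of arrays over all probe sets (Pearson r = 0.971), and wild type 2 and SIN1 KO 2 the least alike (r = 0.904). The level of the ablated gene was not analysed here, nor were fibroblast markers or other genes of the pathway, because the table does not name them.

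Mean values were lower in SIN1 KO than in wild type for 10 of the 15 probe sets and higher for 5, but none differed past limma's test over all probe sets. Ccng1, which encodes cyclin G1, had means about 2.3-fold lower in SIN1 KO on each of its 3 probe sets, with gaps of at most 0.46 between arrays of a genotype. For Plk2, Trp53inp1, Pmaip1 and 1 of 2 Mdm2 probe sets, too, both SIN1 KO arrays lay under the lower wild type array. Bax, Bbc3, Perp and Btg2 had higher means in SIN1 KO, with arrays of the 2 genotypes overlapping and wild type 2 the lowest array each time. In all, 7 of 15 probe sets, from 5 genes, had both SIN1 KO arrays below both wild type arrays, a pattern held by 14.9% of all tested probe sets. The reverse pattern was held by 0 of 15, against 20.4% of all. Where the mean difference also had to reach 1 log2 unit, 6 of 15 were lower, from 4 genes, against 4.12% of all, and 0 were higher, against 3.27%. Pmaip1 enters both counts through SIN1 KO values under background. With every value under its array's background raised to that level, 6 of 15 lay below, against 9.02% of all, and 5 of 15, from 3 genes, did so by at least 1 log2 unit, against 2.96%. A probe set under background on every array then takes the background levels themselves, which overlap between genotypes, and can show neither pattern. The shares of all thus fall in part by construction. Leaving out an array loosens these patterns: without wild type 2, 12 of 15 lay below, against 28.0% of all, and without wild type 1, 7 lay below and 5 above, against 33.2% and 43.2%. Without SIN1 KO 1, 7 lay below and 3 above, against 31.4% and 43.7%. An array of bulk RNA cannot tell fewer cells of a kind from less transcript per cell.

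In limma's test 0 of 15 passed the adjusted threshold of 0.05 in either direction, where 0.0% of all probe sets passed as higher and 0.0% as lower. The lowest adjusted p among the members was 0.798 and the highest 0.957. At an unadjusted threshold of 0.05, 5 of 15 were lower, against 2.57% of all probe sets, and 0 were higher, against 3.0%. The 5 were the 3 probe sets of Ccng1 and those of Pmaip1 and Plk2, so they stand for 3 genes. The median difference of the members was -0.72, beside 0.037 over all tested probe sets. Without wild type 1 the members' median was -0.025, and without wild type 2 it was -1.19.

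**Figure D1:**
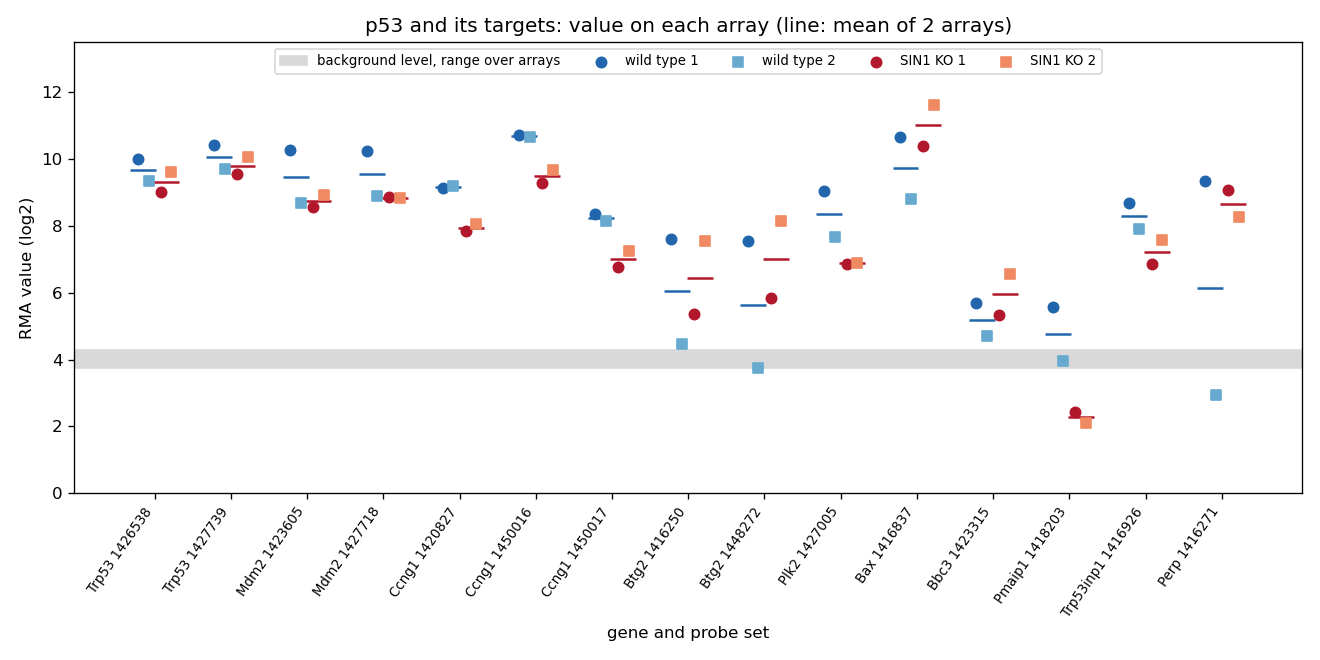
RMA value (log2) of each of the 15 probe sets on each of the 4 arrays, with a short line at the mean of the 2 arrays of a genotype and a grey band from 3.75 to 4.27 for the background level. The SIN1 KO arrays lie below the wild type arrays for Ccng1, Plk2, Trp53inp1 and Pmaip1, and wild type 2 is the lowest array for Btg2, Bax, Bbc3 and Perp.

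The Trp53 transcript itself was measured by 2 probe sets. Probe set 1426538_A_AT read 10.004 and 9.34 in wild type 1 and 2 and 9.02 and 9.60 in SIN1 KO 1 and 2. The other, 1427739_A_AT, read 10.42 and 9.70 on the wild type arrays and 9.55 and 10.05 on the SIN1 KO arrays. In both, wild type 1 was the highest array, SIN1 KO 1 the lowest, and the genotypes overlapped. The differences were -0.36 (SE 0.39) and -0.26 (SE 0.38), with limma adjusted p of 0.854 and 0.892. The gap between the wild type arrays, 0.67 and 0.73, was larger than either difference. With arrays scaled to the added hybridisation controls the differences were -0.039 and 0.062, so no direction for Trp53 can be given.

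Mdm2, which marks p53 for degradation and is itself a p53 target, had a single high array. Probe set 1423605_A_AT read 10.26 and 8.69 on the wild type arrays and 8.57 and 8.94 on the SIN1 KO arrays. Probe set 1427718_A_AT read 10.24 and 8.90 on the wild type arrays and 8.86 and 8.83 on the SIN1 KO arrays. On both, wild type 1 stood apart and the other 3 arrays lay within 0.37 and 0.067 of each other. The differences were -0.72 (SE 0.60) and -0.73 (SE 0.51), with limma adjusted p of 0.826 and 0.820. Without wild type 1 they were 0.069 and -0.054, so the lower mean in SIN1 KO rests on that array. The separation of the second probe set was by 0.040 only.

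Ccng1, Plk2 and Btg2 act on the cell cycle. Ccng1 encodes cyclin G1, a p53-induced partner of protein phosphatase 2A that feeds back on Mdm2. Probe set 1420827_A_AT read 9.14 and 9.20 on the wild type arrays and 7.85 and 8.05 on the SIN1 KO arrays. Probe set 1450016_AT read 10.72 and 10.66 on the wild type arrays and 9.28 and 9.69 on the SIN1 KO arrays. Probe set 1450017_AT read 8.35 and 8.15 on the wild type arrays and 6.78 and 7.24 on the SIN1 KO arrays. Both wild type arrays were high and both SIN1 KO arrays low on all 3, and the nearest arrays of the genotypes were 1.10, 0.97 and 0.91 apart. Arrays of a genotype differed by far less, by 0.06 to 0.20 in wild type and 0.19 to 0.46 in SIN1 KO.

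The mean over the 3 Ccng1 probe sets was 9.37 ± 0.048 (SD, n = 2) for wild type and 8.15 ± 0.25 (SD, n = 2) for SIN1 KO. The difference of that mean was -1.22 (SE 0.27), 2.33-fold lower in SIN1 KO. The probe sets gave -1.22, -1.20 and -1.24, with unadjusted limma p of 0.00654, 0.0104 and 0.0114 and adjusted p of 0.798, 0.820 and 0.820. Leaving out any 1 array kept each probe set's difference between -1.47 and -0.998, and scaling to the hybridisation controls gave -0.90, -0.88 and -0.92. The 3 probe sets read the same gene in the same RNA, so their likeness speaks to the measurement of Ccng1 on these arrays and not to further replicates.

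Plk2 encodes a polo-like kinase that p53 induces and that acts in G1 and in the response to stress. Its probe set 1427005_AT read 9.06 and 7.68 on the wild type arrays and 6.87 and 6.91 on the SIN1 KO arrays. Both SIN1 KO arrays were lower than both wild type arrays, by at least 0.78, and they differed from each other by 0.038. The wild type arrays were 1.37 apart. The difference was -1.48 (SE 0.52), 2.79-fold lower, with an unadjusted limma p of 0.0425 and an adjusted p of 0.820. It was -0.80 without wild type 1 and -2.17 without wild type 2.

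Btg2, an antiproliferative gene of the BTG/TOB family, varied more within each genotype than between them. Probe set 1416250_AT read 7.61 and 4.48 on the wild type arrays and 5.36 and 7.55 on the SIN1 KO arrays, and 1448272_AT read 7.55 and 3.75 on the wild type arrays and 5.85 and 8.16 on the SIN1 KO arrays. Wild type 1 and SIN1 KO 2 were high, SIN1 KO 1 intermediate and wild type 2 low on both. In the second probe set wild type 2 lay below that array's background level of 3.91. The differences of 0.41 (SE 1.31) and 1.36 (SE 1.52) had limma adjusted p of 0.957 and 0.859. They became -1.16 and -0.54 without wild type 2, and the first was -0.68 without SIN1 KO 2.

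**Figure D2:**
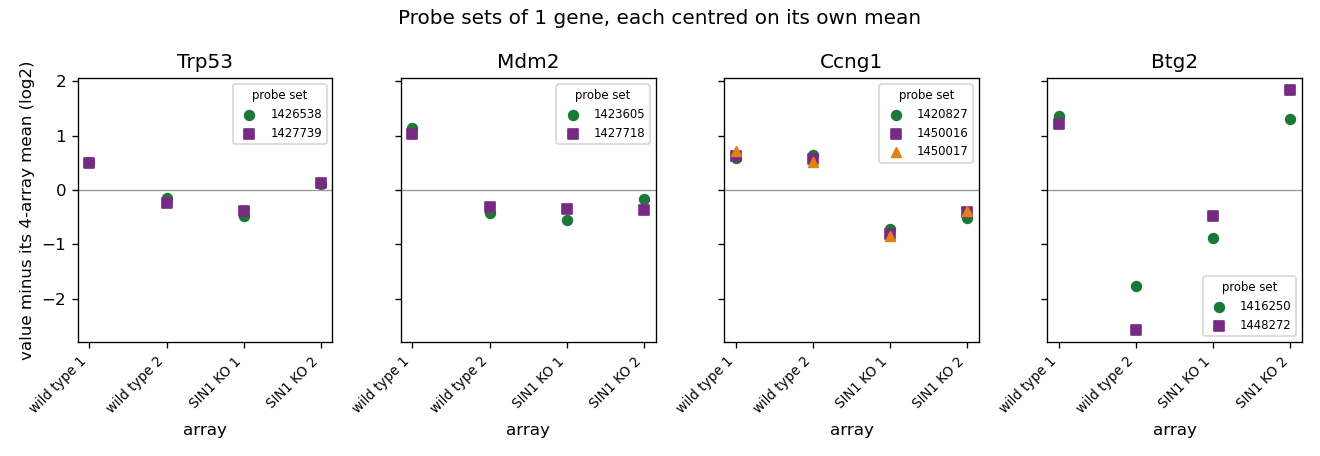
Values of the 4 genes with more than 1 probe set on each array, each probe set centred on its own mean over the 4 arrays (log2). The probe sets of a gene follow each other closely, within 0.09 for Trp53, 0.20 for Mdm2, 0.14 for Ccng1 and 0.81 for Btg2 on any array, and only Ccng1 places both wild type arrays on one side of 0 and both SIN1 KO arrays on the other.

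Bax, Bbc3 and Pmaip1 belong to the BCL-2 family and act at the mitochondrion in apoptosis, where Bax forms pores and Bbc3 (PUMA) and Pmaip1 (NOXA) are BH3-only proteins that promote this. Bax, probe set 1416837_AT, read 10.67 and 8.81 on the wild type arrays and 10.40 and 11.63 on the SIN1 KO arrays. SIN1 KO 2 was the highest array, and SIN1 KO 1 lay between the wild type arrays. The difference was 1.27 (SE 0.79, limma adjusted p 0.820), smaller than the gap of 1.86 between the wild type arrays. It was 0.34 without wild type 2 and 2.20 without wild type 1.

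Bbc3, probe set 1423315_AT, showed the same order of arrays as Bax. It read 5.69 and 4.70 on the wild type arrays and 5.32 and 6.58 on the SIN1 KO arrays. Its difference of 0.75 (SE 0.59) had a limma adjusted p of 0.823, and the groups overlapped. It was 0.13 without SIN1 KO 2 and 0.26 without wild type 2.

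Pmaip1 went the other way from Bax and Bbc3. Probe set 1418203_AT read 5.58 and 3.96 on the wild type arrays and 2.44 and 2.10 on the SIN1 KO arrays. Both SIN1 KO arrays lay below their background levels of 3.75 and 4.27, and wild type 2 was barely above its own level of 3.91. The nearest arrays of the genotypes were 1.52 apart. The fitted difference of -2.50 (SE 0.61, unadjusted limma p 0.0121, adjusted p 0.820) was made of values under background. Measured against the background level, the mean of Pmaip1 was at least 1.69-fold lower in SIN1 KO. That bound rests on wild type 1, the one array on which Pmaip1 stood clearly above background. With values raised to background, SIN1 KO 2 at 4.27 lay above wild type 2 at 3.96, so the genotypes overlapped.

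Trp53inp1 encodes a stress-induced nuclear and autophagy-related protein that cooperates with p53 in cell death. Its probe set 1416926_AT read 8.68 and 7.92 on the wild type arrays and 6.88 and 7.57 on the SIN1 KO arrays. Both SIN1 KO arrays lay below both wild type arrays, by at least 0.35. The difference was -1.08 (SE 0.42), 2.11-fold lower, with an unadjusted limma p of 0.0583 and an adjusted p of 0.820. It stayed between -1.46 and -0.70 with any 1 array left out.

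Perp, a membrane protein of desmosomes that p53 induces during apoptosis, held the widest spread of the members. Probe set 1416271_AT read 9.35 in wild type 1 and 2.93 in wild type 2, against 9.07 and 8.27 in SIN1 KO. Wild type 2 alone was low, below its background level of 3.91, while the other 3 arrays lay within 1.09 of each other. With the low value raised to background the wild type arrays were 5.45 apart, and 0.0266% of all tested probe sets had a gap as large when treated alike. Probe sets under background on both wild type arrays could not reach such a gap, so that share is not matched for level. The difference of 2.52 (SE 2.20, limma adjusted p 0.826) was 2.04 with the same floor, and -0.69 without wild type 2. The higher mean in SIN1 KO therefore rests on 1 wild type array.

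**Figure D3:**
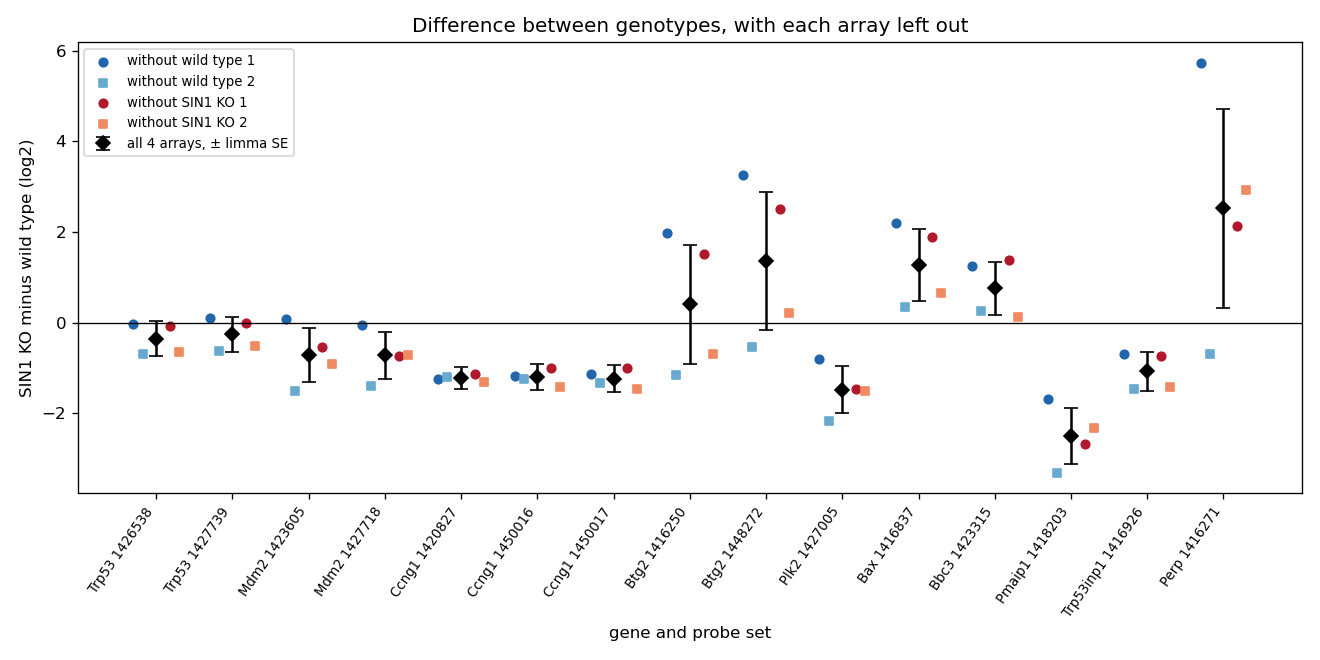
Difference of SIN1 KO minus wild type (log2) for each probe set with all 4 arrays (diamond, bar of 1 limma SE) and with each array left out in turn (coloured points). The 3 probe sets of Ccng1 stay between -1.47 and -0.998 whichever array is left out, while Perp runs from -0.69 to 5.73, the latter against a wild type value under background.

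The 2 wild type arrays were farther apart in these genes than at the median over all probe sets. Wild type 1 was above wild type 2 for 14 of 15 members, against 54.9% of all tested probe sets, and by at least 1 log2 unit for 8 of 15, against 6.49%. Wild type 1 was the highest of the 4 arrays for 11 of 15, against 18.3% of all. Wild type 2 was the lowest for 5 of 15, a share near the 37.6% of all probe sets. The median gap between the wild type arrays was 1.34 over the members and 0.38 over all probe sets. Between the SIN1 KO arrays it was 0.51 over the members and 0.40 over all. These counts run over probe sets that share genes and a pathway, and are given as descriptions with no test. The values over all probe sets include many at background and are not matched to the members for level.

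For 9 of the 15 probe sets the gap within wild type was larger than the difference between the genotype means. The exceptions were the 3 probe sets of Ccng1 and those of Plk2, Trp53inp1 and Pmaip1, the last with values under background. Within these 6, the gap within wild type was 0.06 to 0.20 for Ccng1, 0.76 for Trp53inp1, 1.37 for Plk2 and 1.62 for Pmaip1. The hybridisation controls had a mean of 11.41 and 11.54 on the SIN1 KO arrays, under the 11.85 and 11.73 of wild type. With arrays scaled to them, the median over all probe sets moved from 0.037 to 0.36 and the members' median from -0.72 to -0.40. Of the 15 members, 1427739_A_AT of Trp53 alone changed sign under that scaling.

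**Figure D4:**
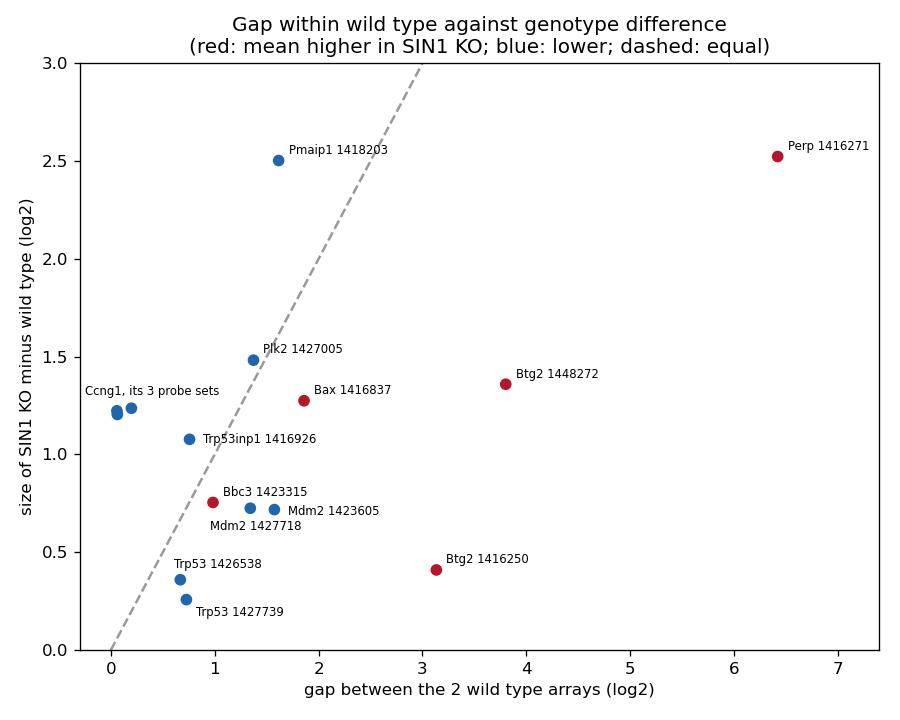
Size of the difference between genotype means against the gap between the 2 wild type arrays, both in log2 units, for each probe set, with a dashed line where they are equal. The 6 points above the line are the 3 of Ccng1 and those of Plk2, Trp53inp1 and Pmaip1, and Perp lies farthest to the right, at a gap of 6.42 that includes a value under background (5.45 with that value at background).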

How the data were processed

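The authors deposited 1 table of log2 values, made with RMA according to the submitters' processing notes, which name no version, background option or probe set definition. That the scale is log2 was taken from the range of the values, 0.80 to 14.17. No further normalization was applied. Of 45101 probe sets, 64 named controls were left out of the tests. SIN1 KO was compared with wild type over the other 45037 with limma 3.58.1 in R 4.3.3 (lmFit and eBayes), with Benjamini-Hochberg adjustment over all of them. Residual degrees of freedom were 2, to which the variance prior added 2.38, and the number of arrays limits the precision (median SE 0.33). It was tested on simulated data. The members and lists were chosen with earlier results of these data known, and the promoter search and the counts with values raised to background were added after the values were seen. The rule for named genes was to give all 15 member probe sets. The planned lists of other pathway genes and cell type markers were not analysed here, since the probe sets could not be named. Replicate numbers come from the sample titles. The titles do not state that these numbers pair the arrays, so they were not taken to. Deviations of same-numbered arrays from their group means correlated negatively (r = -0.42 across probe sets). With 2 arrays per genotype, differently numbered arrays then correlate positively and to the same degree, so this value does not show that the arrays are unpaired. Figures were drawn with matplotlib 3.10.9.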

Additional observations from a re-analysis of the deposited data

How the results depend on the processing

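The background level, set by 1 control probe set, does not enter limma's main fit. With 2 arrays per genotype, small differences could not be resolved. Larger ones did not pass limma's test either, such as -1.22 for Ccng1 1420827_A_AT (adjusted p 0.798) and -1.48 for Plk2 (0.820). The lowest adjusted p over all probe sets was 0.128, so the test does not exclude differences of that size in the members. The members past the adjusted threshold were 0 under median centring, cyclic loess and scaling to the hybridisation controls. Under the filter on low probe sets, which dropped Pmaip1 before testing, they were 0 too. They were also 0 under trended and robust priors and with the replicate block. Crossing the replicate numbers, added after the data were seen, gave 0 as well. The block and the crossing each tested little, on 1 residual degree of freedom. A fit without an array leaves 1 array in a genotype and also 1 residual degree of freedom, so no test is quoted for it. Over all probe sets the filter gave 5 higher, and an unadjusted threshold gave 1350 higher and 1159 lower, with 5 members lower. Under scaling to the hybridisation controls, 2 of 15 members had both SIN1 KO arrays above both wild type arrays, against 51.4% of all, and 6 had both below, against 4.21%. With an array left out, which loosens that rule, 0 to 5 lay above, against 29.9% to 43.7% of all, and 7 to 12 below, against 28.0% to 33.2%. The members' median difference ran from -1.19 to -0.025 with an array left out. Of 188 alternative values of single probe sets, 7 changed sign. Many could not: the 2 priors, the replicate block and, for the probe sets it kept, the filter leave a difference as it was. Raising values to background also leaves it unchanged unless an array lies under that level. Trp53 1427739_A_AT went to 0.062 under scaling to the hybridisation controls. With an array left out, it ran from -0.62 to 0.11, and Mdm2 1423605_A_AT from -1.51 to 0.069. Perp then ran from -0.69 to 5.73, Btg2 1416250_AT from -1.16 to 1.98 and Btg2 1448272_AT from -0.54 to 3.26. Among alternatives that kept all 4 arrays, the members' lowest limma adjusted p was 0.383, under scaling to the hybridisation controls. Values raised to the background level are given with no test, because limma's prior on such tied values was degenerate (788 probe sets called); Pmaip1 then differed by -0.76. Limma's treat with a 1.5-fold minimum and a threshold of 0.01 gave 0 over all probe sets. Both are stricter than the main test, which gave 0, so neither could add a call.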
